A study of Mus musculus with 12 samples.

Results

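In the testes of F1 male mice, 10 heat shock protein genes were followed, namely Hspa2, Hspa1l, Hspa4l, Hspa1a, Hspa1b, Hspa8, Hsp90aa1, Hsph1, Dnajb1 and Hspb1. They were taken by gene symbol from a table of 20788 genes, in which all 10 were found, and all 10 were among the 16388 genes that passed the filter on low counts. The 12 RNA-seq libraries form 4 groups of 3. The knockdown group descended from males given a lentivirus that carried short hairpin RNAs to the long non-coding RNA lncRNA5251, and its control group 3NC from males given the same kind of vector (LV3) without them. The overexpression group descended from males given a lentivirus that expresses lncRNA5251, and its control group 5NC from males given the empty vector of that kind (LV5). In the study's methods the virus was injected into the testes of the fathers, which are ICR mice, and the sons were raised to adulthood, whereas the series' design text places the transfection in the F1 testis itself. The strain is written "IRC mouse" in the labels, and no other allele or agent is named for any group. Whether the 3 libraries of a group are 3 animals is not stated in the labels, so p-values here refer to the spread among libraries, part of which may be technical. lncRNA5251 itself was not analysed here.

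Heat shock proteins are chaperones, which bind unfolded or newly made proteins and help them fold. Hsp70 proteins do this in cycles of ATP binding and hydrolysis, J-domain proteins hand them their substrates and speed up hydrolysis, and Hsp110 proteins bring on the exchange of nucleotide that ends a cycle. Hsp90 acts later on kinases, hormone receptors and other clients, and small heat shock proteins hold unfolded proteins without ATP. Under heat or other protein damage, heat shock factor 1 binds repeats of the unit GAA and its complement TTC upstream of the inducible members. The testis is known for Hsp70 genes that are on without stress, such as Hspa2 in spermatocytes, where the male is sterile without it, and Hspa1l in spermatids.

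The members fall into both kinds. Hspa2 (chr12:76403812-76406938, build GRCm38, which equals the mm10 of the labels), Hspa1l (chr17:34972703-34979228) and Hspa4l (chr3:40744500-40796103), an Hsp110 relative, are the germ-cell genes. Hspa1a (chr17:34969359-34972156) and Hspa1b (chr17:34956429-34959238) encode the classic inducible Hsp70, and Hspb1 (chr5:135887919-135889563) encodes the small heat shock protein Hsp25. Hsph1 (chr5:149616843-149636498) encodes the inducible Hsp110, Dnajb1 (chr8:83608175-83612653) the J-domain partner Hsp40, and Hsp90aa1 (chr12:110691036-110696395) the alpha form of Hsp90. Hspa8 (chr9:40801276-40805202) encodes the constitutive Hsp70 of every cell.

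The bases before the start site were compared among the members. The RefSeq promoter table of the same build held 8 of the 10 members, all but Hspa8 and Hsp90aa1. The start in that table lies inside the gene range given above for Hspa2, Hspa4l, Hsph1 and 1 start of Dnajb1, so those windows overlap the range. Both strands of the 250 bases before the start were searched for GAANNTTC and TTCNNGAA, which are pairs of heat shock units facing each other or facing apart. The windows of Hspa1a (chr17:34972157-34972406, minus strand), Hspa1b (chr17:34959239-34959488, minus strand), Hspb1 (chr5:135887669-135887918, plus strand), Hspa2 (chr12:76404120-76404369, plus strand) and Hspa1l (chr17:34972453-34972702, plus strand) are shown 5′ to 3′ because the first 3 hold such a pair and the last 2 hold none. Capitals mark the pairs.
Hspa1a: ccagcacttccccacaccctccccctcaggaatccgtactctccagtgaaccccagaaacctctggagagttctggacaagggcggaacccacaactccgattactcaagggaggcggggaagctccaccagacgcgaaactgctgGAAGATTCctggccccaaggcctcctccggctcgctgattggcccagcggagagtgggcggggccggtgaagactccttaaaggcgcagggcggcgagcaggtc
Hspa1b: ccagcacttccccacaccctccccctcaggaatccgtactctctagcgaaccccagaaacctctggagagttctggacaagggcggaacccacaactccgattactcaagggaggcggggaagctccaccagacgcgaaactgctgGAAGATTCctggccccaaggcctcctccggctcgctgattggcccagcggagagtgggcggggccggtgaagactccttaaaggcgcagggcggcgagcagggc
Hspb1: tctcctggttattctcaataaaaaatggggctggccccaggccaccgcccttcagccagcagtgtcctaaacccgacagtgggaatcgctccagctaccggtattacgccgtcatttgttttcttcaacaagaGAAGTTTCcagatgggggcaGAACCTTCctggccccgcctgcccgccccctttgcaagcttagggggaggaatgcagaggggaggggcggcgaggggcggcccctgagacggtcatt
Hspa2: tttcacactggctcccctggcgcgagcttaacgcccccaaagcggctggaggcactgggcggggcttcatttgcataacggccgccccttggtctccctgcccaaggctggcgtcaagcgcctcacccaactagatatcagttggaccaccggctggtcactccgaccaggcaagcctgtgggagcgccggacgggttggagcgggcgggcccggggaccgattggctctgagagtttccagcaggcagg
Hspa1l: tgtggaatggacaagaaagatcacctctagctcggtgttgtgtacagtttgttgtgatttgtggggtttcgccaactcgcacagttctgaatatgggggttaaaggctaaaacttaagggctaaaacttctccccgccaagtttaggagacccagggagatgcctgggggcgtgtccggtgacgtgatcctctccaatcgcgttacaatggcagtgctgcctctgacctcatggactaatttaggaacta
The windows of Hspa1a and Hspa1b differed at 3 of 250 bases, and in both a GAANNTTC pair began 104 bases before the start. Hspb1 held the pair at 117 and again at 97 bases before its start. Hsph1 held a TTCNNGAA pair at 33 bases before its first annotated start. Neither pair was found in the windows of Hspa2, Hspa1l, Hspa4l or Dnajb1. Of all 32851 promoters in the table, 6.7% held GAANNTTC, 7.2% held TTCNNGAA and 12.8% held at least 1 of them. The CCAAT box, which stood in 33.8% of all promoters, was present in Hspa2, Hspa1l, Hspa1a, Hspa1b, Hsph1 and Dnajb1. TATAAA and the cAMP response element TGACGTCA, found in 12.4% and 1.5% of all promoters, were in none of the 8 members' windows. These matches are descriptions of the letters and not of bound sites.

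On chromosome 17, Hspa1a and Hspa1l are transcribed away from each other, with 546 bases between their annotated starts, and Hspa1b lies 10120 bases beyond the other end of Hspa1a. The coding sequences of Hspa1a and Hspa1b were 99.6% identical and their predicted proteins 100% identical over 641 aligned residues. Against Hspa1a, protein identity was 88.3% for Hspa1l, 85.1% for Hspa2 and 85.0% for Hspa8, and 36.4% for Hsph1 and 34.7% for Hspa4l, the Hsp110 proteins. Hspa4l and Hsph1 shared 60.6% of their residues. Of the 50-base stretches of the Hspa1a transcript, 58.8% were also found in Hspa1b and 8.0% in Hspa1l, whereas none was found in Hspa2, Hspa8, Hspa4l or Hsph1. The deposited read numbers of Hspa1a, Hspa1b and Hspa1l held fractions in all 12 libraries, while their sum was whole within 0.02 of a read in 12 of 12. The part of sequence likeness in this was not tested. The other 7 members had whole numbers in every library. The sources used here do not give how reads were shared among the 3 genes, so the levels of Hspa1a and Hspa1b, and any difference between them, are uncertain.

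Depth ranged from 12719699 estimated reads in overexpression replicate 3 to 15771655 in 5NC replicate 1. Counting error weighed most on Hspa1a, Hspa1b and Hspb1, which had 11.7 to 49.6, 56.2 to 193 and 152 to 325 estimated reads per library. Markers of testis cells were present in every library, with a summed level of 3685 to 4554 CPM (reads scaled to a common library size by TMM) over 9 spermatocyte genes and 17425 to 23570 over 8 elongating spermatid genes. 3NC replicate 2 and knockdown replicate 1 stood apart with 8 leukocyte markers at 209 and 160 CPM, against 6.98 to 17.1 in the other 10 libraries. Markers of the epididymis, the duct beside the testis, split the compared groups. Their sum over 7 genes was 31.9 to 75.8 CPM in 3NC and 13.9 to 288 in 5NC, but 1.06 to 17.4 in the knockdown group and 1.18 to 1.33 in the overexpression group. Between 0 and 4 of the 7 were at 0 in a library, and Crisp1, the most abundant of them in the controls, stood at 9.86 to 239 CPM in the control libraries and at 0.079 to 0.20 in the overexpression group. The part of these markers in the comparisons was not tested. A different split ran through the base composition of the libraries. For each library, the deviation of log2 CPM from a gene's mean was regressed on the GC content of its transcript over 16030 genes. This GC slope was above 0 in 7 libraries and below 0 in 5, which were 3NC replicates 2 and 3, 5NC replicates 2 and 3 and overexpression replicate 3. All 3 libraries of the knockdown group lay above 0.

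In F1 testis the members spanned a wide range of expression. On the length-scaled FPKM scale, Hsp90aa1 stood at a mean of 929 over the 12 libraries, the 39th highest of all genes. Hspa2 followed at 423, Hspa4l at 336 and Hspa1l at 306, then Hspa8 at 144 and Dnajb1 at 106. Hspb1 stood at 21.7 and Hsph1 at 18.8, above the median of 6.44 over the genes tested. The inducible pair was lowest, with Hspa1b at 3.20 and Hspa1a at 0.80 FPKM. In this order most neighbours were apart in all 12 libraries. Hspa2 exceeded Hspa4l within 12 of 12 libraries although the ranges overlapped, with a minimum of 357 FPKM for Hspa2 and a maximum of 380 for Hspa4l. Hspa4l and Hspa1l could not be ranked beyond their spread, since Hspa4l was higher in 9 of 12 libraries. The same held for Hspb1 and Hsph1, with Hspb1 higher in 8 of 12. Compared to Hspa1l, Hspa1a and Hspa1b together took 0.78% to 2.58% of the reads of the 3 genes.

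**Figure D1:**
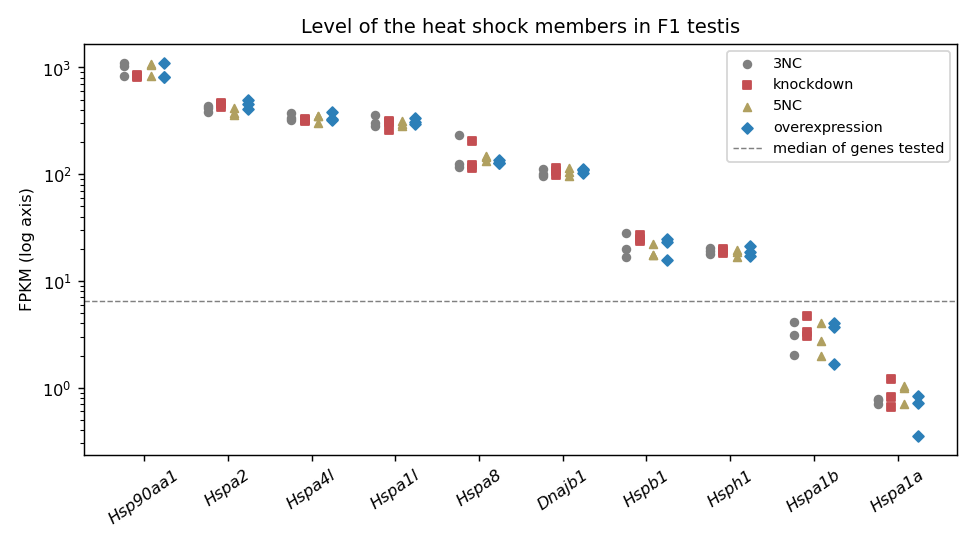
FPKM of each member on a log axis, with 1 point per library and 3 libraries per group; the dashed line is the median of the genes tested. Hsp90aa1 lies highest at a mean of 929 FPKM, and Hspa1b and Hspa1a, at 3.20 and 0.80, lie below the median of 6.44.

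Across the 12 libraries the highest level was 1.30 times the lowest for Hsph1 and Dnajb1, 2.73 times for Hspa1b and 3.38 times for Hspa1a. The within-group SD of log2 CPM was 0.11 for Hsph1, 0.12 for Hspa2, 0.13 for Hspa4l and Dnajb1, 0.39 for Hspa1a and 0.52 for Hspa1b, against a median of 0.21 over all genes tested. Of the germ-cell genes, Hspa1l had an SD of 0.16. Thus the germ-cell members were measured with less spread than the median gene, and the inducible pair with more. Hspa8, at a mean of 144 FPKM, had an SD of 0.32, above that median. The median covers genes of all levels, and genes of like level were not compared.

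By the study's methods, the question of the design was whether testes of the sons differ after the fathers were given virus meant to lower or raise lncRNA5251. No member passed an adjusted p of 0.05 in any of 5 tests, which were edgeR's quasi-likelihood tests with Benjamini-Hochberg adjustment over 16388 genes. In the knockdown group compared to 3NC, 0 of 10 members were called beside 0% of all genes, with 0 members and 924 genes at an unadjusted p under 0.05, and DESeq2 called 16 genes and no member. In the overexpression group compared to 5NC, 0 of 10 members were called beside 0.311% of all genes. In 5NC compared to 3NC, 0 of 10 were called beside 0.128%. For the knockdown effect minus the overexpression effect the background was 0.0244%, and for any difference among the 4 groups it was 0.238%. A count of 0 of 10 members is near these background shares. The comparison of 5NC with 3NC shares its control libraries with both others, so the 3 are not independent.

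The sizes of change were small for most members. The median log2 fold change of the 10 members was 0.05 in the knockdown group compared to 3NC, 0.11 in the overexpression group compared to 5NC and -0.10 in 5NC compared to 3NC, and the medians over all genes were -0.02, -0.01 and -0.02. The 95% interval stayed within a 1.5-fold change in either direction for 6 members in the knockdown group and for 7 in the overexpression group. It stayed within a 2-fold change for 9 members in each. Outside Hspa1a and Hspa1b, the widest bound was 1.59-fold in the knockdown group and 1.56-fold in the overexpression group, both for Hspb1. In bulk tissue, a change in the share of a cell type and a change in its RNA per cell cannot be told apart.

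**Figure D2:**
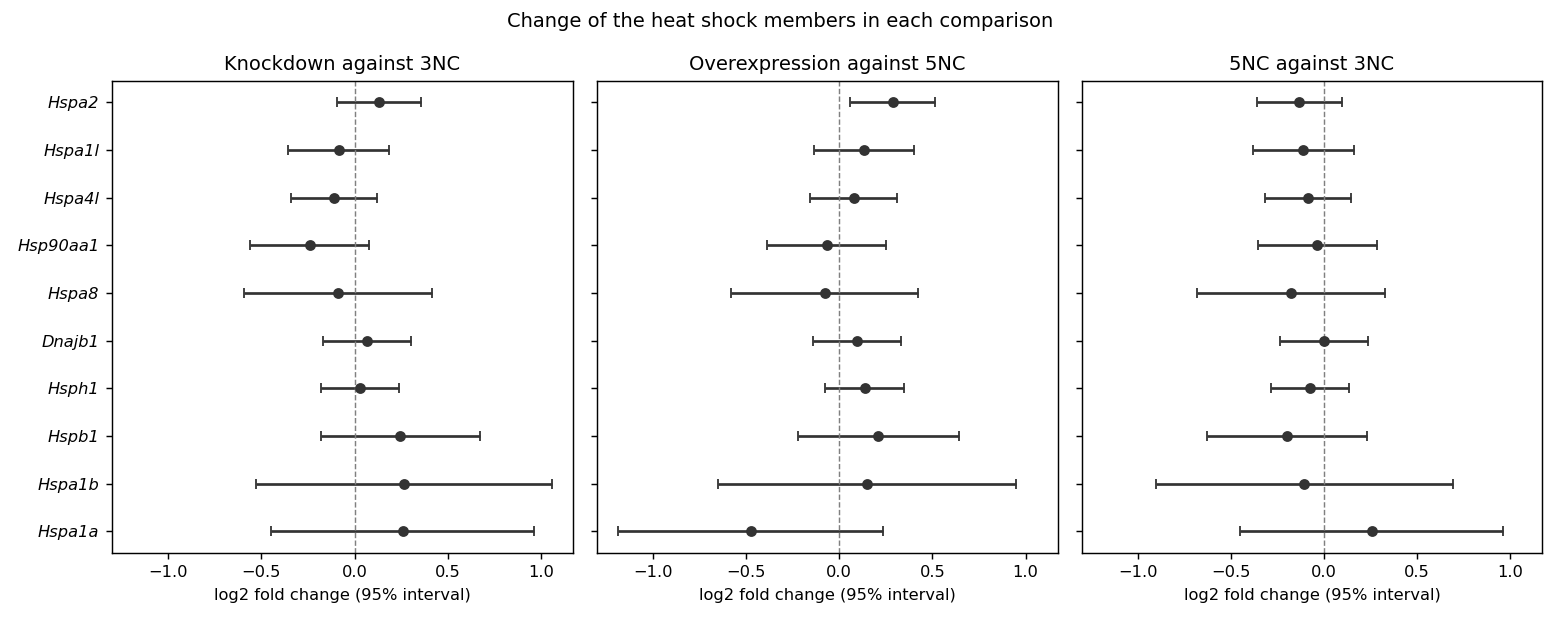
Log2 fold change of each member with its 95% interval in 3 comparisons; the dashed line marks no change. Hspa2 in the overexpression group compared to 5NC, at 0.29, is the only interval that lies wholly to 1 side of 0, in a comparison where 11.9% of all genes had an unadjusted p under 0.05, and it did not pass the adjusted threshold.

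Hspa2, the Hsp70 of meiotic cells, came nearest to a call. In the overexpression group it stood at 1204, 1102 and 983 CPM (replicates 1 to 3), and in 5NC at 987, 831 and 879 CPM. The groups overlapped narrowly, since overexpression replicate 3 lay just below 5NC replicate 1. The means were 1096 ± 111 and 899 ± 79.8 CPM (SD, n = 3 each). The log2 fold change was 0.29 with an SE of 0.10 and a 95% interval of 0.06 to 0.51. The unadjusted p was 0.018 and the adjusted p 0.307 by edgeR. In the knockdown pair Hspa2 stood at 1090, 1106 and 1042 CPM in the knockdown group and at 1049, 872 and 1037 in 3NC, and the log2 fold change was 0.13 with an SE of 0.10 (adjusted p = 0.767). With single libraries left out, this value ranged from 0.047 to 0.18. It was 0.042 without 3NC replicate 2 and knockdown replicate 1 together. The difference between both effects was -0.15 with an SE of 0.15 (adjusted p = 0.9999), so the effects of the opposite treatments were not shown to differ. At an unadjusted p under 0.05 stood 11.9% of all genes in the overexpression comparison, so 1 of 10 members is near that share. The epididymis markers, at 13.9 to 288 CPM in 5NC and 1.18 to 1.33 in the overexpression group, moved opposite to Hspa2 between these groups, and their part was not tested.

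The other germ-cell members showed no such ordering. Hspa1l, the spermatid Hsp70, ranged from 609 to 824 CPM in 3NC, 580 to 735 in the knockdown group, 628 to 714 in 5NC and 681 to 782 in the overexpression group. All 4 ranges overlapped. Its log2 fold change was -0.08 with an SE of 0.12 in the knockdown group (adjusted p = 0.863) and 0.13 with an SE of 0.12 in the overexpression group (adjusted p = 0.745). Hspa4l stood at 1177, 1151 and 1420 CPM in 3NC, at 1096, 1167 and 1207 in the knockdown group, at 1062, 1240 and 1231 in 5NC and at 1172, 1181 and 1372 in the overexpression group. In 3NC and in the overexpression group 1 library was higher than the others, in each case replicate 3, a library with a GC slope below 0. 3NC replicate 2 also has a slope below 0 and was the lowest of its group. The log2 fold change of Hspa4l was -0.11 with an SE of 0.11 in the knockdown group (adjusted p = 0.790) and 0.08 with an SE of 0.11 in the overexpression group (adjusted p = 0.849). With single libraries left out, the value in the overexpression group ranged from 0.0059 to 0.12.

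**Figure D3:**
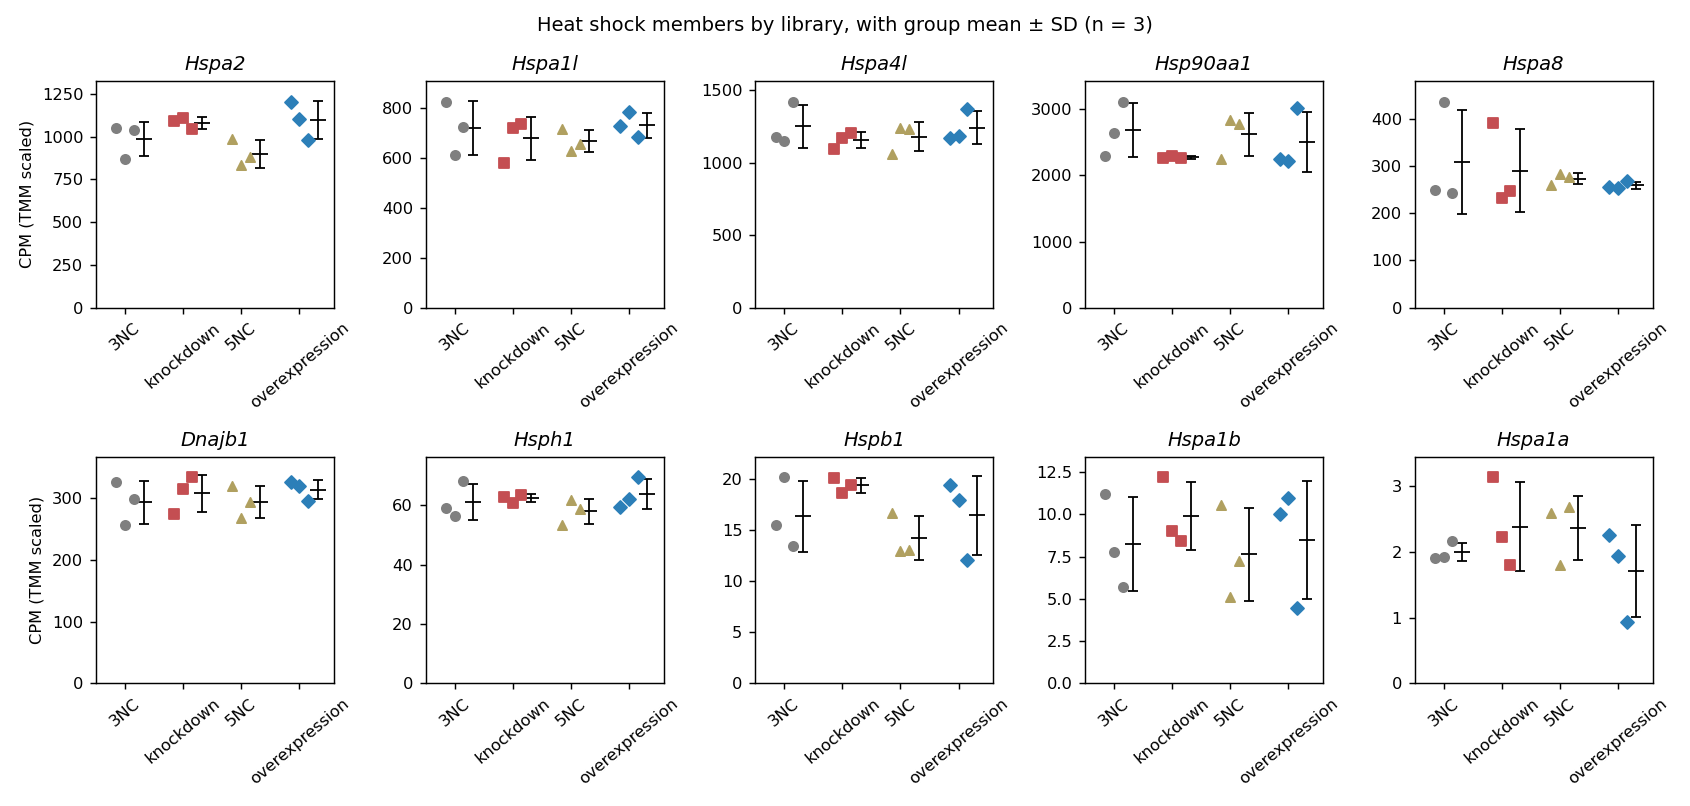
CPM of each member by group, with 1 point per library (replicates 1 to 3 from left to right) and the group mean ± SD (n = 3) beside them; every axis starts at 0. Hspa8 has 1 high library in 3NC (436 CPM) and 1 in the knockdown group (391 CPM), and Hsp90aa1 lies between 2259 and 2301 CPM in all knockdown libraries and in 1 library of 3NC.

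Hsp90aa1, the Hsp90 that germ cells need for meiosis, was the only member whose libraries did not overlap in a comparison. It stood at 2267, 2296 and 2259 CPM in the knockdown group and at 2301, 2648 and 3115 in 3NC. The knockdown values lay together and just under the lowest 3NC library, while the 3NC libraries were spread widely. The log2 fold change was -0.24 with an SE of 0.15 (adjusted p = 0.764), moving to -0.11 when 3NC replicate 3 was left out and to -0.34 when 3NC replicate 1 was. Of all genes, 11.3% did not overlap in this comparison, and 1 of 10 members is close to that share. No member was without overlap in the overexpression group compared to 5NC, where 21.3% of all genes were, or in 5NC compared to 3NC, where 13% were. In 5NC the levels of Hsp90aa1 were 2242, 2845 and 2771 CPM, and in the overexpression group they were 2251, 2224 and 3026. Over the 12 libraries there was a gap of 347 CPM between 7 libraries at 2224 to 2301 and 5 at 2648 to 3115. These 5 were the libraries with a GC slope below 0. With the GC slope as a term of the fit, the log2 fold change in the knockdown group was -0.05.

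The GC slope is built from all genes, so genes of low GC run against it and genes of high GC with it on average, and the members are set beside genes of like GC (within 1 percentage point). Transcript GC was 39.5% for Hspa4l, 43.7% for Hsp90aa1 and 47.4% for Hsph1, and their Pearson correlations with the slope were -0.73, -0.96 and -0.48 (Spearman -0.66, -0.86 and -0.50). It was 58.1% for Hspa1b, 58.9% for Hspa1a and 61.7% for Hspb1, and their correlations were 0.88, 0.39 and 0.66 (Spearman 0.76, 0.33 and 0.36). Hspa8, at 51.2% GC, gave -0.29. Hspa2, Hspa1l and Dnajb1, at 53.6%, 53.2% and 52.7% GC, gave 0.68, 0.51 and 0.71. Over all tested genes of like GC the median Pearson correlation was -0.65 for Hspa4l, -0.50 for Hsp90aa1, -0.24 for Hsph1, 0.54 for Hspa1b, 0.55 for Hspa1a, 0.66 for Hspb1 and 0.27 for Hspa2. Hsp90aa1, Hspa1b, Hspa2, Dnajb1 and Hspa8 lay beyond the quartiles of their like genes and the other 5 members within, which is the split that quartiles give for any genes. Without 3NC replicate 3 and 5NC replicate 2, the libraries farthest from the median slope, the value was -0.95 for Hsp90aa1 and 0.81 for Hspa1b. These are descriptions over 12 libraries, which share their depth and composition. Likewise Hsp90aa1 ran opposite to Hspa1b (r = -0.91) and with Hspa4l (r = 0.82). The part of base composition in the levels was not tested beyond the fit with the slope as a term, in which no member was called either.

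**Figure D4:**
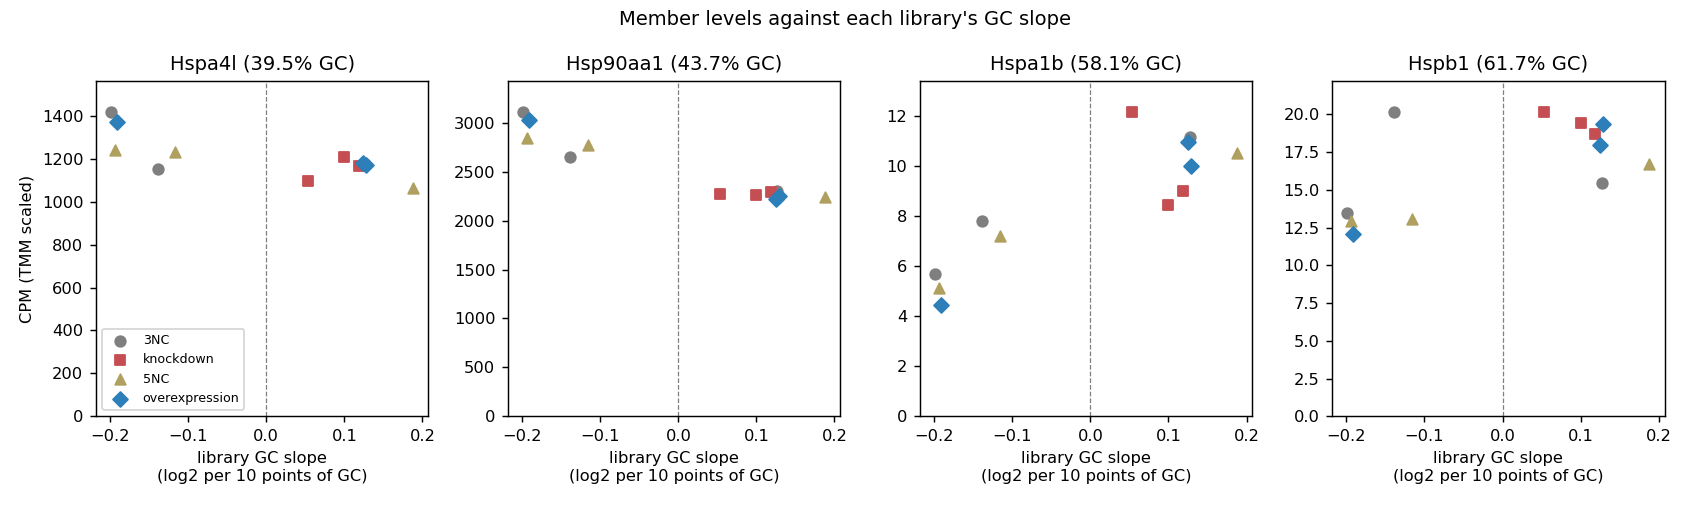
CPM of 4 members against the GC slope of each library, which is the change in log2 CPM per 10 percentage points of transcript GC; points are libraries and the dashed line marks a slope of 0. Hsp90aa1 is higher in all 5 libraries with a slope below 0 than in the other 7 and Hspa1b is lower there, while 3NC replicate 2, whose slope is below 0, is low for Hspa4l (1151 CPM) and high for Hspb1 (20.2 CPM).

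Hspa8, the constitutive Hsp70, was uneven in the knockdown pair. It stood at 249, 436 and 242 CPM in 3NC and at 391, 232 and 248 in the knockdown group. Each group thus had 1 high library and a pair of lower ones. In 5NC it was 260, 283 and 276 CPM and in the overexpression group 255, 253 and 267. The high libraries were 3NC replicate 2 and knockdown replicate 1, in which the 8 leukocyte markers, none of them at 0, summed to 209 and 160 CPM and 8 macrophage markers to 294 and 491 CPM. In the other 10 libraries Hspa8 lay between 232 and 283 CPM, the macrophage markers between 87.3 and 112 and the leukocyte markers between 6.98 and 17.1. In 5NC and the overexpression group the leukocyte markers spanned 7.44 to 8.16 and 6.98 to 12.2 CPM, and 1 to 3 of the 8 were at 0. The log2 fold change of Hspa8 in the knockdown group was -0.09 with an SE of 0.23 (adjusted p = 0.926). Leaving out 3NC replicate 2 gave 0.24 and leaving out knockdown replicate 1 gave -0.37. Its sign also turned without knockdown replicate 2 (0.043), without knockdown replicate 3 (0.0099) and with the GC slope as a term (0.011), so no direction could be given. With overexpression it was -0.08 with an SE of 0.23 (adjusted p = 0.941). With both libraries left out, the value in the knockdown group was -0.034 with an SE of 0.08 (adjusted p = 0.939). Over the 12 libraries the log2 CPM of Hspa8 and of Ptprc, the leukocyte marker CD45, had a Pearson correlation of 0.89 (Spearman 0.12), and in the other 10 libraries the Pearson value was -0.57. The relation thus rested on the 2 high libraries.

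**Figure D5:**
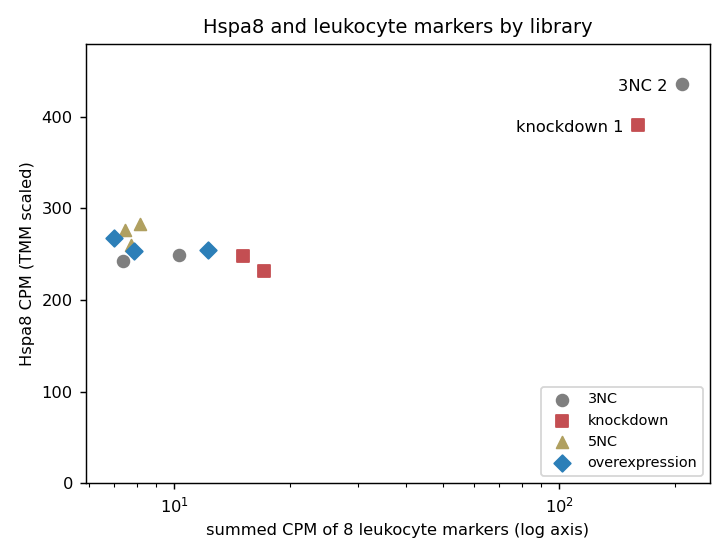
CPM of Hspa8 against the summed CPM of 8 leukocyte markers (log axis), with 1 point per library. 3NC replicate 2 and knockdown replicate 1 lie apart at 436 and 391 CPM, and the other 10 libraries lie between 232 and 283.

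The inducible pair was low in every library. Hspa1b stood at 11.2, 7.80 and 5.69 CPM in 3NC, at 12.2, 9.01 and 8.45 in the knockdown group, at 10.5, 5.13 and 7.22 in 5NC and at 10.02, 10.95 and 4.46 in the overexpression group. Every group overlapped with the others, and its lowest values came from libraries with a GC slope below 0. The fitted log2 fold change was 0.27 with an SE of 0.36 in the knockdown group (adjusted p = 0.849) and 0.15 with an SE of 0.36 in the overexpression group (adjusted p = 0.927). With single libraries left out it ranged from 0.066 (without 3NC replicate 3) to 0.56 (without 3NC replicate 1) in the knockdown group and from -0.072 (without 5NC replicate 2) to 0.46 (without overexpression replicate 3) in the overexpression group. Hspa1a stood at 1.91, 1.92 and 2.17 CPM in 3NC, at 3.14, 2.23 and 1.80 in the knockdown group, at 2.59, 1.81 and 2.69 in 5NC and at 2.26, 1.94 and 0.93 in the overexpression group. Overexpression replicate 3, the library with the fewest reads, was the lowest, and knockdown replicate 1 the highest. For Hspa1a the log2 fold change was 0.26 with an SE of 0.32 in the knockdown group (adjusted p = 0.835) and -0.48 with an SE of 0.33 in the overexpression group (adjusted p = 0.623). It ranged from 0.0052 (without knockdown replicate 1) to 0.41 (without knockdown replicate 3) in the knockdown group, and from -0.71 (without overexpression replicate 1) to -0.19 (without overexpression replicate 3) in the overexpression group. Since reads were shared between these genes, they were also summed into 1 gene, which gave 0.03 in the overexpression group. Most of that sum is Hspa1b, so it says little about Hspa1a alone.

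Hspb1, a small heat shock protein that is also made by somatic cells, stood at 15.5, 20.2 and 13.4 CPM in 3NC and at 20.2, 18.7 and 19.4 in the knockdown group. In 5NC it was 16.7, 12.9 and 13.1 CPM and in the overexpression group 19.4, 17.98 and 12.1. The knockdown libraries were the most even, and 3NC replicate 2 reached their level. Its log2 fold change was 0.25 with an SE of 0.19 in the knockdown group (adjusted p = 0.767) and 0.21 with an SE of 0.20 in the overexpression group (adjusted p = 0.746). In the knockdown group it was 0.42 without 3NC replicate 2, the library with leukocyte markers at 209 CPM, 0.14 without 3NC replicate 3 and 0.081 with the GC slope as a term. With overexpression it was 0.079 without overexpression replicate 1 and 0.40 without overexpression replicate 3. The 9 Sertoli cell markers summed to 802 to 1011 CPM in 3NC, 897 to 963 in the knockdown group, 792 to 904 in 5NC and 780 to 979 in the overexpression group. Clu, at a mean of 369 FPKM, is among these 9. Its likeness to Hspb1, given below, is thus not independent of the sum.

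Hsph1 and Dnajb1, which serve the Hsp70 cycle as exchange factor and as J-domain partner, had the lowest ratio of highest to lowest library among the members. Hsph1 had a mean of 61.1 ± 6.14 CPM in 3NC, 62.3 ± 1.38 in the knockdown group, 57.9 ± 4.26 in 5NC and 63.6 ± 5.11 in the overexpression group (SD, n = 3 each). Dnajb1 had a mean of 294 ± 34.6 CPM in 3NC, 308 ± 29.9 in the knockdown group, 294 ± 25.8 in 5NC and 314 ± 16.0 in the overexpression group (SD, n = 3 each). The 95% interval of the log2 fold change in the knockdown group was -0.18 to 0.24 for Hsph1 and -0.17 to 0.30 for Dnajb1. In the overexpression group it was -0.07 to 0.35 and -0.14 to 0.33. All 4 intervals held 0, and none passed 0.35 in size.

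Genes whose pattern over the 12 libraries was most like that of a member were named for Hspa2, Hspa1a and Hspb1, by the Pearson correlation of log2 CPM and with no test. For Hspa2 they were Plekha6 (r = 0.98), Lmnb2 (0.98) and Arhgef2 (0.98), with Spearman values of 0.97, 0.97 and 0.97. Their transcripts held 54.9%, 57.6% and 53.7% GC, and that of Hspa2 53.6%. For Hspb1 they were Clu (0.95), which encodes clusterin and was listed here as a Sertoli cell marker, Gbgt1 (0.94) and Tmbim6 (0.94). For Hspa1a they were Sharpin (0.92), BC052040 (0.90) and Diexf (0.87). In the same order, Spearman values were 0.81, 0.91 and 0.83 for the genes like Hspb1, and 0.90, 0.81 and 0.71 for those like Hspa1a. Transcript GC was 55.6%, 55.3% and 53.6% for the genes like Hspb1, at 61.7%, and 56.8%, 46.8% and 48.8% for those like Hspa1a, at 58.9%. Without overexpression replicate 3 and knockdown replicate 1, the values of BC052040 and Diexf fell to 0.66 and 0.58, whereas Clu kept 0.93 without overexpression replicate 3 and 5NC replicate 2, the farthest for Hspb1.

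A wider list held 159 symbols, 22 of them for immediate early genes and the rest for chaperone families, members included. Of these, 157 were in the table. The missing symbols, Aha1 and Ccn1, are other names of Ahsa1 and Cyr61, which were in it. Tested were 151 genes, 131 in the chaperone families and 20 immediate early genes. None of the 151 was called in any of the 5 tests. Of the 131 chaperone genes, 2 had an unadjusted p under 0.05 in the knockdown group (1.53%, beside 5.64% of all genes), 11 in the overexpression group (8.40%, beside 11.9%) and 7 in 5NC compared to 3NC (5.34%, beside 10.8%). In the difference of effects there were 0 (beside 4.63% of all genes), and in the test over all groups 9 (6.87%, beside 11.4%). The median log2 fold change of the chaperone genes was -0.04 in the knockdown group and -0.02 in the overexpression group, beside -0.02 and -0.01 over all genes. By family, 15 Hsp70, 4 Hsp90, 45 J-domain, 8 small heat shock, 12 chaperonin, 6 heat shock factor, 28 co-chaperone and 13 endoplasmic reticulum chaperone genes were tested. The heat shock factor list includes Hsf2bp and Hsbp1, which encode binding partners of such factors and not factors. The 2 genes of the whole list with the smallest p in each comparison are named although none passed. In the knockdown group they were Stip1, which links Hsp70 to Hsp90, with a log2 fold change of 0.23 and an SE of 0.09 (adjusted p = 0.764), and Egr3, an early response factor, with 0.40 and 0.17 (adjusted p = 0.764). In the overexpression group they were Egr3 with 0.79 and an SE of 0.17 (adjusted p = 0.0987) and Hspb7, a small heat shock protein, with -0.75 and 0.20 (adjusted p = 0.158). Egr3 stood at 34.4, 27.5 and 20.9 CPM in the overexpression group and at 17.1, 14.5 and 16.3 in 5NC, without overlap. Hspb7 stood at 12.03, 14.3 and 11.8 CPM in the overexpression group and at 25.4, 18.01 and 20.5 in 5NC, again without overlap, as in 21.3% of all genes and as for the epididymis markers. In 5NC compared to 3NC they were Cdc37l1, a relative of the Hsp90 co-chaperone Cdc37, with -0.34 and an SE of 0.10 (adjusted p = 0.269), and Unc45a, a myosin chaperone, with -0.57 and 0.19 (adjusted p = 0.3205). Cdc37l1 and Dnajc10 had the smallest p in the difference of effects, at -0.28 with an SE of 0.14 and -0.39 with an SE of 0.20 (adjusted p = 0.9999 for both). Over all groups they were Egr3 (adjusted p = 0.135) and Klf4 (adjusted p = 0.233).

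The early stress response genes, a list of immediate early genes such as Egr3 that handling of tissue is known to induce, were also tested, and none passed in any comparison. In 5NC compared to 3NC, 18 of 20 tested genes had a lower estimate and the median log2 fold change was -0.46, beside -0.02 over all genes. Without 3NC replicate 2, the library with the leukocyte markers at 209 CPM, 7 of 20 were lower and the median was 0.07. In the knockdown group compared to 3NC, 6 of 20 were lower and the median was 0.11. There, 1 of 20 was lower without 3NC replicate 2 (median 0.53) and 14 of 20 without knockdown replicate 1 (median -0.42). Summed over 21 genes, of which Klf4 alone stood at 80.6 to 91.1 CPM in 5NC and 87.99 to 131 in 3NC, the list stood at 207 to 254 CPM in 5NC and at 267 to 352 in 3NC, and at 315 to 413 in the knockdown group and 242 to 346 in the overexpression group. Members that heat shock factor 1 is known to induce were also compared between 5NC and 3NC. Their log2 fold changes were 0.26 for Hspa1a, -0.11 for Hspa1b, -0.20 for Hspb1, -0.08 for Hsph1, -0.04 for Hsp90aa1 and 0.0012 for Dnajb1. None passed the threshold. Above 0 stood only Hspa1a, which became -0.028 when summed with Hspa1b, and Dnajb1, with an SE of 0.11. Without 3NC replicate 2, Hspb1 was at -0.021 and Dnajb1 at -0.088.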

How the data were processed

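Testis RNA of 12 libraries was sequenced after oligo(dT) enrichment, per the study's methods. The authors mapped the reads to the mouse genes with SOAPaligner. The build in the labels is mm10. The deposited values are unscaled estimated counts per gene, of which 17.3% of genes held a fraction in some library, and FPKM, which the authors computed and term RPKM. A further 18 per-sample columns belong to other groups and stayed out.

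Groups and replicate numbers were read from the sample titles. Rounded estimated counts were filtered with filterByExpr, which kept 16388 of 20788 genes. The 12 libraries entered a single edgeR 4.0.16 fit (R 4.3.3, TMM scaling, glmQLFit as it stands by default) with a coefficient for each group. Benjamini-Hochberg adjustment ran over all genes tested, and an adjusted p under 0.05 was a call. The coefficient of biological variation was 22.9%, the residual degrees of freedom 8 and the prior ones 3.37. SEs were log2 fold changes over the root of their F statistic, and 95% intervals used the sum of both degrees of freedom. Log2 CPM used a prior count of 2. Libraries of a group differed by more than sampling noise, with a chi-square of at least 3.44 per degree of freedom. GC content was taken from GENCODE transcripts of GRCm38 for 96.6% of the genes.

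All 10 members were named, of the network lists the genes that passed or else the 2 with the smallest p, and for Hspa2, Hspa1a and Hspb1 the 3 genes of highest correlation. Members, lists and this rule were chosen with earlier results of these data known. The tests were repeated with RLE size factors, without the filter, with a replicate block, on only the groups compared, with DESeq2 1.42.0, and with limma-trend (limma 3.58.1) on log2 CPM and on FPKM with a pseudocount of 0.1 or 1 (FPKM of 0.5 or more in any 3 libraries). They were also repeated with the study's cut-offs (0.001 and 1 on the log2 scale), with each library left out, with 3NC replicate 2 and knockdown replicate 1 left out, and with Hspa1a and Hspa1b summed. Fits on total counts and with a GC term, and the repeat for the immediate early genes with libraries left out, were added after seeing the data. The edgeR, limma-trend and DESeq2 fits were tested on counts simulated with a planted change in the knockdown group. The other steps were not tested in this way.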

Additional observations from a re-analysis of the deposited data

How the results depend on the processing

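No member was called in any of 123 combinations of a comparison and an alternative that could be run, so the count of 0 held throughout. The fits of only the groups compared were not run for the difference of effects and the test over all groups. Of 950 log2 fold changes of members under the alternatives, 885 kept their sign and 65 turned, and no member's change passed the threshold on either side. In the overexpression group compared to 5NC, Hspa2 ranged from 0.22 to 0.37 over 24 alternatives, with a smallest adjusted p of 0.142 (the GC term, edgeR). Counts over all genes moved more, and the cause was not tested. DESeq2 called 16 in the knockdown group against 3NC, 323 in the overexpression group against 5NC, 163 in 5NC against 3NC, 41 in the difference of effects and 568 in the test over all groups, compared to 0, 51, 21, 4 and 39 by edgeR. The study's thresholds left 5, 3, 2 and 2 in the last 4 of these. Fits of only the groups compared gave 107 in the overexpression group and 7 in 5NC against 3NC, and limma-trend on log2(FPKM + 0.1) gave 82 in the overexpression group. Without 3NC replicate 2 and knockdown replicate 1 together there were 159 in the overexpression group, 45 in 5NC against 3NC and 67 over all groups, and with the GC term 147, 99 and 80. Total counts without scaling gave 33 in 5NC against 3NC and 64 over all groups.

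Same-numbered libraries did not deviate together, with correlations of -0.64 to 0.39 over 18 pairs of which 5 were above 0.1, so the replicate numbers were not taken to pair the samples. With the replicate block, 0 members were called and all-gene counts were 21 in the overexpression group, 5 in 5NC against 3NC, 2 in the difference of effects and 7 over all groups. With each library left out in turn, all-gene counts were 0 to 12 in the knockdown group, 9 to 87 in the overexpression group, 3 to 35 in 5NC against 3NC, 2 to 10 in the difference of effects and 6 to 81 over all groups. The 12 calls in the knockdown group and the 87 in the overexpression group came without 3NC replicate 3, and 9 remained in number without 5NC replicate 2 or 3.

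The cause of the changes of sign was not tested. Without 3NC replicate 2 and knockdown replicate 1 together, values were -0.022 for Hspa1a and -0.033 for Hsph1 in the knockdown group, 0.15 for Hspa8 and -0.087 for Dnajb1 in 5NC against 3NC, and -0.098 for Hspa1b and 0.046 for Hspa8 in the difference of effects. With the GC term they were -0.12 for Hspa1b, 0.011 for Hspa8 and -0.023 for Dnajb1 in the knockdown group, -0.057 for Hspa1b in the overexpression group, -0.016 for Dnajb1 in 5NC against 3NC, and -0.067 for Hspa1b, 0.051 for Hspa8 and -0.058 for Hspb1 in the difference of effects. The sum of Hspa1a and Hspa1b gave 0.028 in the overexpression group and -0.028 in 5NC against 3NC, opposite in sign to Hspa1a alone. Dnajb1 in 5NC against 3NC was -0.0014 with RLE size factors and -0.00076 with DESeq2. In the difference of effects Hspa8 was 0.00018 with the replicate block, 0.0037 with limma-trend on log2 CPM, 0.038 and 0.037 with limma-trend on FPKM (pseudocounts 0.1 and 1) and 0.019 without scaling, and Dnajb1 was 0.0078, 0.0077 and 0.013 in the last 3. With each library left out, values in the knockdown group spanned -0.19 to 0.033 for Hspa1l, -0.17 to 0.0034 for Hspa4l, -0.37 to 0.24 for Hspa8, -0.031 to 0.12 for Hsph1 and -0.022 to 0.16 for Dnajb1. In the overexpression group they spanned -0.072 to 0.46 for Hspa1b and -0.22 to 0.016 for Hsp90aa1. In 5NC against 3NC they spanned -0.22 to 0.0031 for Hspa1l, -0.14 to 0.027 for Hspa4l, -0.42 to 0.19 for Hspa1b, -0.31 to 0.15 for Hspa8, -0.13 to 0.093 for Hsp90aa1, -0.13 to 0.018 for Hsph1 and -0.088 to 0.088 for Dnajb1. In the difference of effects they spanned -0.20 to 0.40 for Hspa1b, -0.29 to 0.32 for Hspa8, -0.12 to 0.055 for Dnajb1 and -0.15 to 0.21 for Hspb1. Another scaling moved the median of all genes by at most 0.049 on the log2 scale.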
